A study of Mus musculus with 2 samples.

Results

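The retinoic acid gene set described here has 6 members: the synthesis enzyme gene Aldh1a2, the retinol carrier gene Rbp4, the receptor genes Rara, Rarb and Rarg, and the partner receptor gene Rxra. They were found by symbol among the 34184 genes of both single-cell tables, where each symbol has 1 row. Aldh1a2 was picked from these data for its loss in ectopic CAR cells, so its difference between the tissues is a description and supports nothing. The other members were chosen by function, with earlier results of the same libraries known.

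CAR cells (CXCL12-abundant reticular cells) are the stromal cells of bone marrow that supply CXCL12 and stem cell factor to blood cells. The study set mouse femur bone marrow beside the marrow of ectopic bone, grown subcutaneously for 4 weeks from an implant of 8 µg BMP-2 (a bone-inducing growth factor) on 40 mg β-TCP (a calcium phosphate carrier). In both tissues the hematopoietic cells came from wild-type C57BL6 mice (C57BL6J in the protocol) and the CAR cells from Cxcl12-GFP mice, which report Cxcl12 expression with GFP. The CAR fraction was released with collagenase and depleted of hematopoietic and endothelial cells, and both fractions were sorted and combined before droplet capture, so the CAR share of a library was set by the mixing. The age, sex and number of mice are not given in the sources used here. There was 1 library per tissue. No difference below has a replicate check or a test, and every interval covers counting error only, at the 95% level.

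Retinol travels in blood bound to RBP4 and is turned into retinoic acid in 2 steps: alcohol dehydrogenases and retinol dehydrogenases make retinaldehyde, and the ALDH1A enzymes oxidise it irreversibly. Retinoic acid then binds RARα, RARβ or RARγ, each paired with an RXR, on DNA elements built from hexamer repeats, and the CYP26 enzymes remove it. RARα and RARγ are known for roles in granulocyte maturation and in the upkeep of hematopoietic stem cells, and Rarb is a textbook target of the pathway itself.

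The promoters of the 2 members that were lowest in ectopic against femur CAR-like cells, Aldh1a2 and Rarb, are shown because a retinoic acid element in the second is part of how the pathway is read out. The sequences come from RefSeq (build GRCm38.p6), where all 6 members matched, with 12 promoter windows among them. Each runs 5′ to 3′ on the gene's strand over the 250 bases before the annotated start, and capitals mark a direct repeat of 2 retinoid half-sites. Aldh1a2 lies on the plus strand at chr9:71215539-71215788 and Rarb on the minus strand at chr14:16575477-16575726.
Aldh1a2: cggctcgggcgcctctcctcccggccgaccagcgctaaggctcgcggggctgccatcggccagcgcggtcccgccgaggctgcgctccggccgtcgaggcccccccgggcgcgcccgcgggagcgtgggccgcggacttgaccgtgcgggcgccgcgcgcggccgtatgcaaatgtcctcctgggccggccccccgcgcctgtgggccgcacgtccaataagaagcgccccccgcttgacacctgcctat
Rarb: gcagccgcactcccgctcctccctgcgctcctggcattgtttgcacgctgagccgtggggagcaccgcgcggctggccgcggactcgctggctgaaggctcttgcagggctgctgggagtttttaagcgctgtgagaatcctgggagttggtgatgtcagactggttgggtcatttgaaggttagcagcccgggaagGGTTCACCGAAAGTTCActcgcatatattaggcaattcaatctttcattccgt
The half-sites searched were the hexamer AGGTCA, its variant AGTTCA, the form GGGTCA and also the form GGTTCA, in any pairing, on both strands, with 5, 2 or 1 bases between them. The Rarb window held 1 repeat with 5 bases between the half-sites, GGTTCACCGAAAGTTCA at chr14:16575513-16575529, from 53 to 37 bases before the start. Repeats were searched in whole promoter windows, which were not cut to the 250 bases shown. Such a repeat was found in 32 of 32851 of these windows (0.0974%). Among the 97 windows of the retinoid pathway genes listed below it was found in 2, that of Rarb and that of Cyp26a1, a retinoic acid-degrading enzyme gene, on the opposite strand of the latter. The other 11 windows of the members held none of the repeats, with 2 bases between the half-sites (0.268% of all windows) or with 1 (0.222%) included. The Aldh1a2 window held no half-site in the 250 bases shown, which were 77.6% G or C. Over the same 250 bases, the median window was 52.4% G or C and 38.6% of windows held at least 1 half-site. A match describes letters in this window. Reads from transcript 3′ ends do not show which promoter was used.

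The femur library had 11148 barcodes and 123009924 UMIs (unique molecular identifiers, each counting 1 captured transcript), and the ectopic library had 7214 barcodes and 86018367 UMIs. After filters and removal of predicted doublets, 9755 femur and 6425 ectopic cells remained, and 22 barcodes among them occurred in both libraries, none of them in a CAR-like cell. The CAR-like class, named from its markers, held 218 femur cells with 2091621 UMIs and 174 ectopic cells with 1890792 UMIs. All 15 CAR markers were detected in it in both libraries, and GFP transcripts were found in 79.4% and 81.6% of its cells. Different clusters hold most of the class in the 2 libraries: 178 femur and 3 ectopic cells were in cluster 23, led by Igfbp5, Csmd1, Cxcl12 and Ibsp, while 118 ectopic and no femur cells were in cluster 28, led by Ghr, Cxcl12, Kitl and Csmd1. Cluster 30, of few UMIs per cell (median 1405), held 40 femur and 53 ectopic cells. With 1 library per tissue, a cluster, a library and a tissue cannot be told apart. Among the marker lists of other cells, the osteoblast list summed to 5953 CPM in femur CAR-like cells (9 of 12 genes detected, with Bglap3, Dmp1 and Car12 at 0) and to 834 in ectopic ones (10 of 12, with Bglap3 and Dmp1 at 0). The adipocyte list summed to 1305 (7 of 8, Lep at 0) and 2254 (6 of 8, Lep and Retn at 0), and the neutrophil list to 2560 and 7126, with 12 of 12 detected in each. Their part in the values below was not tested.

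Aldh1a2 encodes the retinaldehyde dehydrogenase that makes most retinoic acid in the embryo. It was abundant in femur CAR-like cells, at 1209 UMIs or 578 CPM (interval 546 to 612; CPM is the gene's share of all UMIs of the class, times 1000000), and nearly absent from ectopic ones, at 3 UMIs or 1.59 CPM (0.327 to 4.64). The ectopic level was 364-fold lower, with a counting interval of 124 to 1769. The transcript was spread over the femur cells and was not the product of a few: 164 of 218 carried it, and the 5 cells with most UMIs held 13.3% of the total. In the 176 femur cells of at least 3000 UMIs, the level per cell ran from 0 in 33 cells through a median of 441 to 2573 CPM. Of the 130 ectopic cells of that depth, 128 had none. With each of those cells thinned to 3000 UMIs, 61.4% of femur CAR-like cells (53.7 to 68.6%) and 0 of 130 ectopic ones had a UMI. By the limit of 3 counts, 0 of 130 allows a share of up to 2.31% of cells with a UMI at that depth, and the exact interval ends at 2.80%. Before thinning, 2 of the same 130 cells had one. The unthinned shares over all CAR-like cells were 75.2% and 1.15%. Femur B lineage cells, which should lack the gene, had it in 0.121% of thinned cells and 0.299% unthinned, at a median of 5878 UMIs per cell against 9916 in CAR-like cells. Ectopic B lineage cells had 0 in 2053 thinned cells (up to 0.146% allowed) at a median of 6333 UMIs against 10733. Both other ALDH1A genes were near the floor: Aldh1a1 had 1 femur and 0 ectopic UMIs, and Aldh1a3 had 1 in each.

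Rbp4, whose protein carries retinol out of liver and fat cells, went the other way. It had 74 UMIs, or 35.4 CPM (27.8 to 44.4), in femur CAR-like cells and 253 UMIs, or 134 CPM (118 to 151), in ectopic ones, a ratio of 3.78 (2.91 to 4.97). The intervals did not overlap. Thinned to equal depth, 7.39% of femur cells (3.99 to 12.3%) and 20.8% of ectopic cells (14.2 to 28.8%) had a UMI, against 17.9% and 43.7% unthinned. In the B lineage, none of 2482 femur and 2053 ectopic thinned cells did. The transcripts were unevenly held in both libraries: the top 5 cells held 29.7% of the femur and 36.4% of the ectopic total. The ectopic cell with most had 25 UMIs. Without the top 5 ectopic cells, and with all femur cells kept, the log2 ratio went from 1.92 to 1.34. Outside CAR-like cells Rbp4 was all but silent, with 1 UMI in the other kept femur cells together and 5 in the ectopic ones. CAR-like cells held 98.7% and 98.1% of its UMIs in kept cells. The adipocyte marker sums above moved in the same direction as Rbp4, and their part in its difference was not tested.

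**Figure D1:**
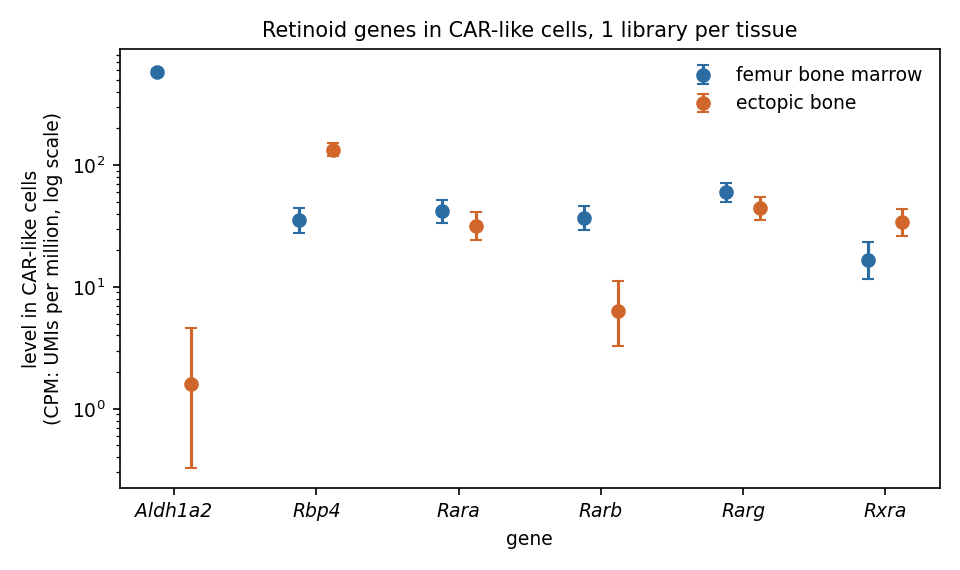
Level of each member in CAR-like cells, in CPM on a log axis, for the femur (blue) and ectopic (orange) library; points are class sums and bars are exact Poisson 95% intervals of counting error, with 1 library per tissue. Aldh1a2 and Rarb stand lower in the ectopic library (1.59 against 578 and 6.35 against 36.8), Rbp4 and Rxra higher, and the intervals of Rara and Rarg overlap.

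The receptor genes differed among themselves. Rarb, whose RARβ is induced by retinoic acid in many tissues, was at 77 UMIs or 36.8 CPM (29.1 to 46.0) in femur CAR-like cells and at 12 UMIs or 6.35 CPM (3.28 to 11.1) in ectopic ones, 5.80-fold lower (3.14 to 11.7). It was found in 45 femur and 9 ectopic cells, and 1 femur cell held 9 of the 77 UMIs. Thinned, 10.2% of femur cells (6.18 to 15.7%) and 2.31% of ectopic cells (0.479 to 6.60%) had a Rarb UMI. These shares come from 18 and 3 cells, and their intervals overlapped slightly. The unthinned shares were 20.6% and 5.17%, and those of thinned B lineage cells 0.161% and 0.0974%. Rara, the gene of the receptor with the widest distribution, was at 87 UMIs or 41.6 CPM (33.3 to 51.3) in femur and 60 UMIs or 31.7 (24.2 to 40.9) in ectopic CAR-like cells, a ratio of 0.763 (0.540 to 1.07). Rarg, whose receptor is prominent in skeletal tissue, was at 126 UMIs or 60.2 CPM (50.2 to 71.7) and 84 UMIs or 44.4 (35.4 to 55.0), a ratio of 0.738 (0.553 to 0.980). The femur and ectopic intervals overlapped for both genes, and neither reached the 1.5-fold difference that counts as a call here. Both passed it when each cell was given equal weight (mean of per-cell CPM), at log2 ratios of -0.78 for Rara and -0.60 for Rarg in place of -0.39 and -0.44. Rxra, the shared partner of many nuclear receptors, was higher in the ectopic library: 35 UMIs or 16.7 CPM (11.7 to 23.3) against 64 UMIs or 33.9 (26.1 to 43.2), a ratio of 2.02 (1.32 to 3.15). Thinned to equal depth, 6.25% of femur cells (3.16 to 10.9%) and 10.8% of ectopic cells (6.01 to 17.4%) had an Rxra UMI, so the detection shares overlapped where the summed levels did not. The unthinned shares were 14.7% and 26.4%, and those of thinned B lineage cells 0.201% and 0.0974%.

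Counting all measured genes of CAR-like cells (at least 50 UMIs over both libraries, 8770 genes), the ectopic level was lower by 1.5-fold or more in 9.99% and higher by 1.5-fold or more in 10.3%. All 6 members were measured. 2 of them were lower by this rule (Aldh1a2 and Rarb), 2 were higher (Rbp4 and Rxra) and 2 were neither (Rara and Rarg). Since Aldh1a2 was picked on this contrast, nothing is read from the count.

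**Figure D2:**
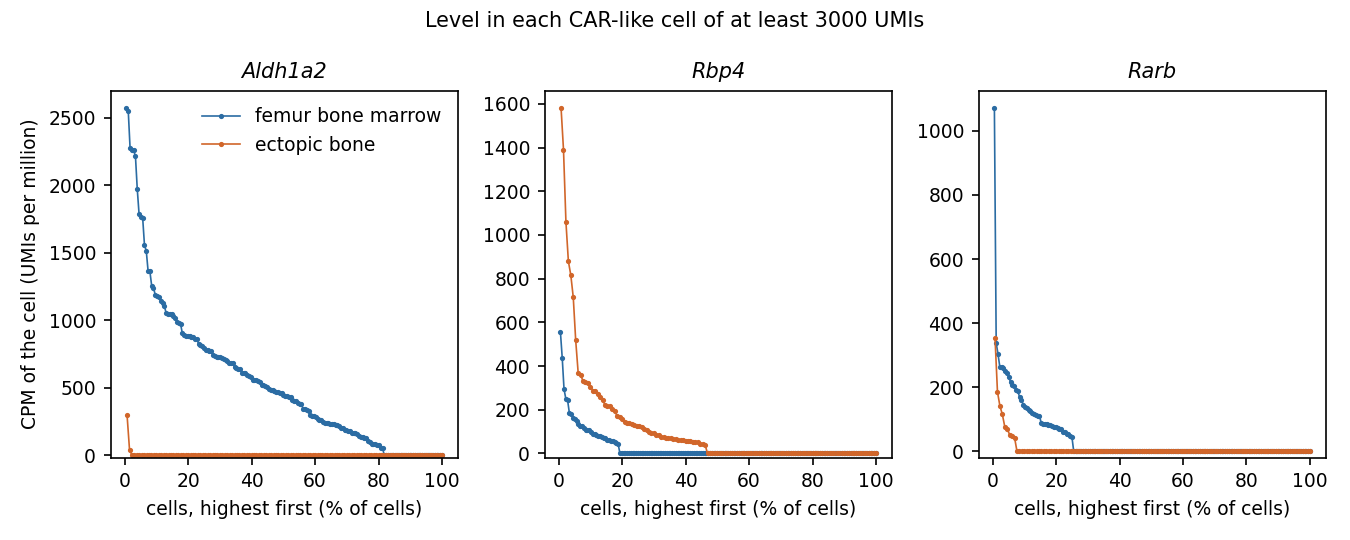
Aldh1a2, Rbp4 and Rarb in each CAR-like cell of at least 3000 UMIs (176 femur cells in blue, 130 ectopic cells in orange), as CPM of that cell on a linear axis, ordered from the highest cell to the lowest as a percentage of the library's cells. The femur Aldh1a2 line falls gradually to 0 and the ectopic one leaves 0 in 2 cells, whereas a few ectopic cells carry the highest Rbp4 levels, up to 1582.

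Within the class, the low-UMI cluster 30 is the one group that holds an appreciable number of cells from both libraries. There, Aldh1a2 was at 29 UMIs in 40 femur cells, 399 CPM (267 to 573), and at 0 in 53 ectopic cells with 128039 UMIs, where the upper limit is 28.8 CPM. Against a floor of 3 UMIs in the ectopic cells, the femur level was 17.0-fold higher. That fold is not a lower bound, because it leaves out the counting error of both levels. Rbp4 in the same cluster was at 15 UMIs or 206 CPM (116 to 340) in femur and 38 UMIs or 297 (210 to 407) in ectopic cells, so the intervals overlapped. The 3 ectopic cells that clustered with the femur cells in cluster 23 had no Aldh1a2 UMI among 39329, with an upper limit of 93.8 CPM, while the 178 femur cells beside them were at 585 (552 to 619). The 3 ectopic Aldh1a2 UMIs lay in 2 cells of cluster 28.

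Ibsp, the gene of a bone matrix sialoprotein, splits CAR cells by their osteogenic state. After thinning, 166 of 176 femur cells and 26 of 130 ectopic cells had an Ibsp UMI. Aldh1a2 was at 580 CPM (547 to 615) in femur cells with Ibsp and 583 (431 to 771) in the 10 femur cells without it, a ratio of 0.995 (0.748 to 1.35). In ectopic cells with Ibsp it was at 8.64 CPM (1.78 to 25.2), where all 3 UMIs lay, and at 0 in the 104 without, with an upper limit of 2.50. Among Ibsp-bearing cells, too, the Aldh1a2 level was lower in the ectopic library, which describes the contrast the gene was picked on. Having an Ibsp UMI does not match femur and ectopic cells for their Ibsp level. The part of osteogenic state in the Aldh1a2 difference was therefore not tested. Rbp4 in ectopic cells was at 173 CPM (132 to 222) with Ibsp and 111 (94.8 to 130) without, a ratio of 1.55 (1.14 to 2.10). In femur cells it was at 29.9 (22.7 to 38.7) with Ibsp and 47.6 (12.97 to 122) without, from 4 UMIs. Femur Rarb was at 38.7 CPM (30.5 to 48.5) with Ibsp, and the cells without it held 1 UMI. Ectopic Rarb was at 2.88 (0.0729 to 16.04) with and 7.46 (3.72 to 13.3) without. Rara, Rarg and Rxra had overlapping intervals with and without Ibsp in both libraries.

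In hematopoietic cells the order of the receptor genes was largely shared by the 2 tissues. Rara was highest in the monocyte class, at 1682 UMIs or 129 CPM (123 to 136) in femur and 1563 UMIs or 128 (122 to 134) in ectopic marrow. Conventional dendritic cells (62.2 and 63.2) and neutrophils (60.6 and 58.3) followed with intervals that overlapped each other. Plasmacytoid dendritic cells stood at 52.2 and 46.1, the T or NK class at 42.8 and 50.9, and CAR-like cells at 41.6 and 31.7. B lineage cells were at 18.2 (16.5 to 20.1) and 25.2 (22.9 to 27.8) and the stem or early progenitor class at 18.4 and 23.8. The myeloid progenitor class, rich in Elane and Mpo, was at 8.72 (6.34 to 11.7) and 5.36 (2.77 to 9.37), below the stem class and below both neutrophils and monocytes in each tissue. Erythroid cells had 1 UMI in each library. CAR-like cells and hematopoietic cells were taken from different mice, so levels across that divide also compare mice.

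Rarg had another distribution. In femur it was highest in CAR-like cells, at 60.2 CPM (50.2 to 71.7), above monocytes at 37.4 (34.1 to 40.8). In ectopic marrow monocytes at 47.6 (43.8 to 51.6), CAR-like cells at 44.4 and the basophil or mast class at 43.8 (28.3 to 64.6) overlapped. The T or NK class stood at 26.9 and 25.1 and conventional dendritic cells at 22.7 and 21.8, while neutrophils were at 8.25 and 8.64, and B lineage cells at 0.606 and 0.599. Rxra was at 18.2 (15.9 to 20.6) and 20.9 (18.4 to 23.6) in monocytes. In femur this overlapped with CAR-like cells, and in ectopic marrow CAR-like cells were above it. Rarb was low in all hematopoietic classes. Its highest hematopoietic level in femur was that of stem or early progenitor cells, with 12 UMIs or 4.61 CPM (2.38 to 8.05) in 114 cells, an interval above those of the B lineage, neutrophil and monocyte classes. Those UMIs lay in 7 of the cells, and 5 cells held 83.3% of them. In the 22 ectopic cells of that class it was at 0, where the upper limit of 5.48 CPM overlaps the femur interval.

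**Figure D3:**
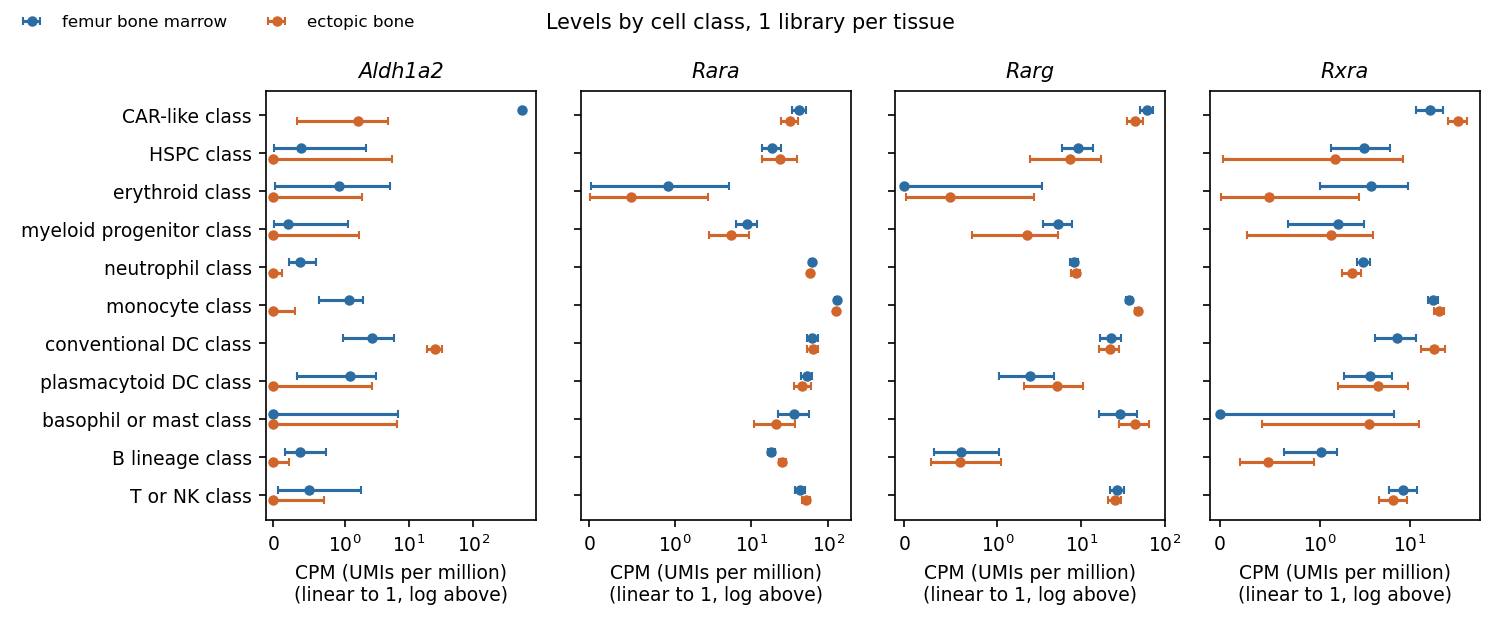
Levels of Aldh1a2, Rara, Rarg and Rxra by cell class, in CPM on an axis that is linear to 1 and logarithmic above, for femur (blue) and ectopic (orange) cells; bars are exact Poisson 95% intervals of counting error, and HSPC and DC stand for stem or early progenitor and dendritic cells. Rara peaks in monocytes in both tissues (129 and 128). Aldh1a2 is high in femur CAR-like cells (578), and its highest ectopic level is in conventional dendritic cells (25.1), where 1 cell held 42 of 60 UMIs.

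Between the tissues, Rara differed by less than 1.5-fold in 7 of the 8 hematopoietic classes in which it was measured. The ratio of ectopic to femur was 0.989 (0.923 to 1.06) in monocytes, where 6.02% of all measured genes passed 1.5-fold in either direction, and 0.963 (0.906 to 1.02) in neutrophils, where 5.96% did. It was 1.39 (1.20 to 1.59) in the B lineage (12.7% of genes past 1.5-fold), 1.19 (0.979 to 1.45) in the T or NK class (6.9%), 0.882 (0.650 to 1.18) in plasmacytoid dendritic cells (8.55%) and 1.29 (0.684 to 2.31) in the stem or early progenitor class (21.8%). In the myeloid progenitor class, where 7.28% passed, it was 0.615 (0.296 to 1.19) from 44 and 12 UMIs. That interval includes 1, and without doublet removal the log2 ratio went from -0.70 to 0.23. Rarg was at a ratio of 1.27 (1.13 to 1.44) in monocytes, 1.05 (0.891 to 1.23) in neutrophils, 0.961 (0.641 to 1.44) in conventional dendritic cells and 0.933 (0.718 to 1.22) in the T or NK class. Rxra was at 1.15 (0.960 to 1.38) in monocytes, 0.748 (0.552 to 1.01) in neutrophils and 0.776 (0.468 to 1.29) in the T or NK class.

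Conventional dendritic cells gave the other calls. Rxra was at 16 UMIs or 7.11 CPM (4.06 to 11.5) in 136 femur cells and 44 UMIs or 18.4 (13.4 to 24.7) in 122 ectopic ones, a ratio of 2.59 (1.43 to 4.92), in a class in which 16.3% of measured genes passed 1.5-fold. With a minimum of 1500 UMIs per cell its log2 ratio was 0.65 in place of 1.38. Aldh1a2 was at 6 UMIs or 2.67 CPM (0.978 to 5.80) in femur and 60 UMIs or 25.1 (19.2 to 32.3) in ectopic dendritic cells, a ratio of 9.43 (4.09 to 26.7). Of the 60 UMIs, 42 lay in 1 cell, which also had 24 UMIs of Ccl22, 2 of Ccr7 and 0 of Fscn1. Another 8 lay in a cell with 16 UMIs of Fscn1, 5 of Ccr7 and 2 of Ccl22. These genes mark mature, migratory dendritic cells, but the first cell had only part of the set. The pair was looked at after its values were seen. Neither cell had a Lepr UMI, and they had 3 and 0 UMIs of Cxcl12. Without the first cell the ectopic level was 7.57 CPM, and without both it was 4.22. Against all femur dendritic cells, the latter gave a log2 ratio of 0.66 in place of 3.24. The femur level was 1.8 CPM without its 1 cell of most Aldh1a2 UMIs and 1.36 without its top 2. In all 8 ectopic dendritic cells had an Aldh1a2 UMI, against 5 in femur. Of the Aldh1a2 UMIs in kept cells, CAR-like cells held 95.7% in femur (1209 of 1264) and 4.69% in the ectopic library (3 of 64). The ectopic share rests on few UMIs, 42 of them in the 1 dendritic cell above. Both shares also depend on how the fractions were mixed. In femur, the other hematopoietic classes were at or below 1.21 CPM. In ectopic marrow, B lineage, T or NK, monocyte and neutrophil cells had none, with upper limits of 0.221, 0.711, 0.302 and 0.122 CPM.

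The wider pathway was followed in CAR-like cells over 88 genes in 9 lists, of which 46 were measured. Of these, 8 were higher and 6 lower in ectopic cells by 1.5-fold or more (17.4% and 13.04% of the measured genes, beside 10.3% and 9.99% of all genes). Their median log2 ratio was -0.02, and that of all measured genes was 0.03. Leaving out the 6 members left 40 measured genes, 6 of them higher and 4 of them lower, at a median of 0.01. The genes that differ therefore pointed in both directions. With each cell at equal weight 8 were higher and 8 lower, and with a limit of 20 UMIs per gene 10 were higher and 9 lower. The shares over all genes under these 2 settings are not given here, so nothing is read from these counts.

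Among transport and binding genes, 2 of 3 measured were higher: Rbp4 and Fabp5, whose protein delivers retinoic acid to PPARδ, at 23.0 and 57.1 CPM (ratio 2.49, 1.76 to 3.57). Its 5 highest ectopic cells held 48.1% of its UMIs. Stra6, the RBP4 receptor, had no UMI in either library, Crabp1 had 10 femur and 0 ectopic UMIs, and Crabp2 had 0 and 3.

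Among retinol and retinal dehydrogenases and reductases, 6 of 7 measured genes lay within 1.5-fold. Rdh10, which makes retinaldehyde from retinol, was at 24.9 and 22.7 CPM (ratio 0.915, 0.596 to 1.40), Adh1 at 74.1 and 69.8 (0.942, 0.741 to 1.20) and Rdh5 at 23.4 and 19.0 (0.813, 0.513 to 1.28). Adh5 and Dhrs4 were each at a ratio of 1.11 and Rdh14 at 1.14. The exception was Dhrs3, which returns retinaldehyde to retinol, at 79.4 and 137 (ratio 1.73, 1.42 to 2.11). None of the 7 was lower by 1.5-fold. Below the limit of 50 UMIs, Rdh13 (22 and 9 UMIs, ratio 0.453, 0.183 to 1.02), Adh7 (23 and 11, 0.529, 0.233 to 1.13) and Dhrs9 (23 and 9, 0.433, 0.176 to 0.971) were lower, and with a limit of 20 UMIs they are called. The Dhrs9 UMIs lay in 7 femur and 3 ectopic cells, with 91.3% of the femur ones in 5 cells. In the retinyl ester list only Dgat1 was measured, at a ratio of 1.39 (0.913 to 2.12), and Lrat, the main retinol-esterifying enzyme gene, had no UMI. The degradation genes Cyp26a1 and Cyp26c1 had none in either library, and Cyp26b1 had 0 and 1.

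Of the 5 measured retinoid receptors, Rxra and Rxrb were higher and Rarb lower. Rxrb was at 26 and 39 UMIs, 12.4 and 20.6 CPM, and its ratio of 1.66 had an interval of 0.985 to 2.84, which includes 1. Rxrg had no UMI. Among 9 measured genes of other RXR partners, 3 were higher and 2 lower. The vitamin D receptor gene Vdr was the lowest, at 99 and 17 UMIs, 47.3 and 8.99 CPM (ratio 0.190, 0.106 to 0.320), close to the ratio of Rarb, which is 0.172 (0.0854 to 0.319). Ppard was at 123 and 68.8 (0.557, 0.448 to 0.691). Ppara was at 7.17 and 19.6 (2.73, 1.46 to 5.35), with 91.9% of its ectopic UMIs in 5 cells, Nr4a1 at 22.5 and 46.5 (2.07, 1.44 to 3.02) with 65.9% in 5 cells, and Thrb at 39.7 and 68.2 (1.72, 1.30 to 2.29). Pparg, the adipogenic partner, was at 386 and 489 (1.27, 1.15 to 1.39), and the oxysterol receptor genes Nr1h2 (0.877) and Nr1h3 (1.01) and the thyroid receptor gene Thra (0.967) lay near 1.

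Corepressors and coactivators were all measured, and 13 of 14 lay within 1.5-fold. Hdac3, the histone deacetylase of the corepressor complex, was lower (ratio 0.638, 0.439 to 0.917). Crebbp (0.717) and Ncoa3 (0.718) were next lowest, and Nrip1 (1.34) and Kat2b (1.33) were among the higher ones. Of 22 textbook target genes, 10 were measured. Rarb and Tgm2, the transglutaminase gene, were lower, the latter at 385 and 154 UMIs, 184 and 81.5 CPM (0.443, 0.365 to 0.535), and Dhrs3 was higher. Rarres2 (1.35), Nrip1 (1.34), Meis2 (1.18), Egr1 (1.17) and Meis1 (0.938) lay within 1.5-fold. So the target genes did not share a direction.

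**Figure D4:**
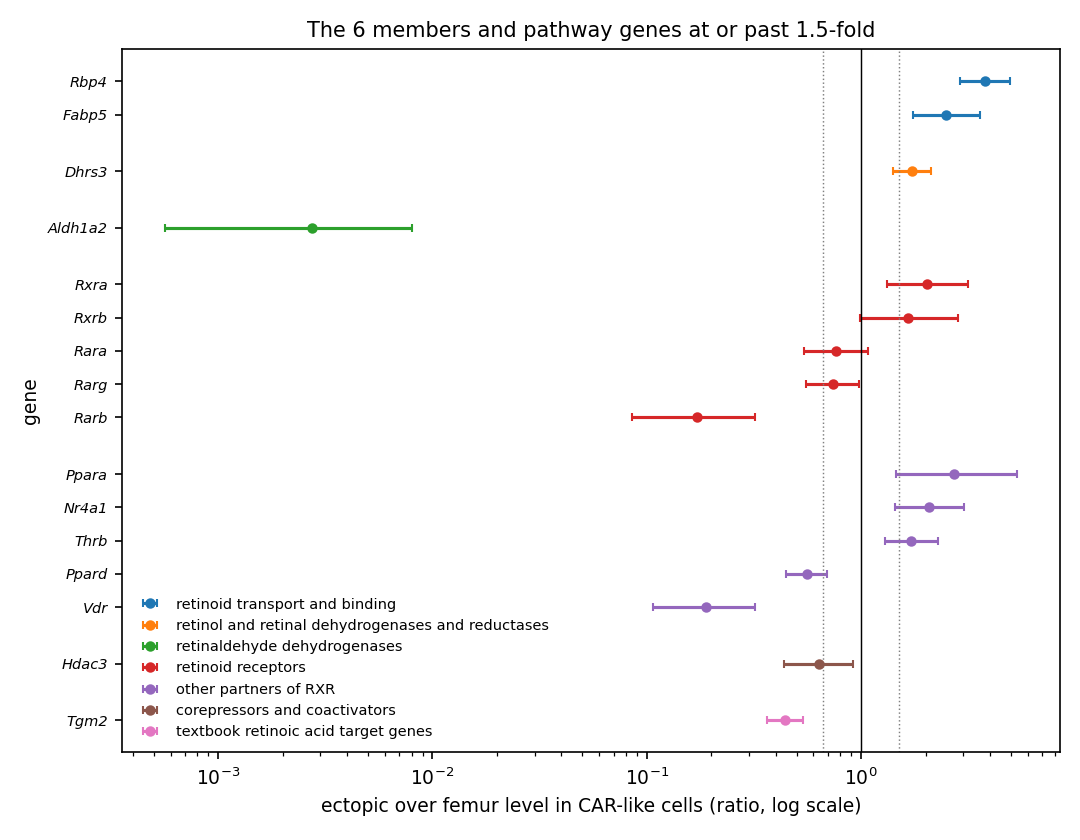
Ratio of the ectopic to the femur level in CAR-like cells, on a log axis and coloured by list, for the 6 members and the other measured retinoid pathway genes at or past 1.5-fold; bars are exact 95% counting intervals, the solid line is a ratio of 1 and the dotted lines are 1.5-fold. Aldh1a2 (0.00275), Rarb (0.172), Vdr (0.190) and Tgm2 (0.443) lie farthest to the left and Rbp4 (3.78) farthest to the right.

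The genes with the pattern most like each member were sought over 23 class-by-library sums of at least 20 cells, by Pearson's r of log2(CPM + 10). The points share 2 libraries and their depths, and for genes of CAR-like cells r rests on the 2 CAR-like points. For Aldh1a2 they were Wwc1 (r = 0.957, 133 femur and 0 ectopic UMIs in CAR-like cells), Hpse2 (0.956, 201 and 2) and Slco1a4 (0.954, 175 and 2). For Rbp4 they were Thbs2 (57 and 184 UMIs) and Sod3 (65 and 214), both at an r of 0.9996, and Emx2os (0.999, 32 and 88). Rarb was followed by Thsd4 (0.981, 1742 and 149), Hoxa10 (0.973, 203 and 30) and Edar (0.973, 128 and 36), each also lower in ectopic cells. Rara was most like Tmem184b (0.909), Ncoa1 (0.895) and Wipf1 (0.886). Rarg was most like Nfil3 (0.862), Tent5a (0.854) and Pde7b (0.852), and Rxra most like Kctd12b (0.907), Lrp1 (0.906) and Pparg (0.902).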

How the data were processed

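Single-cell RNA was measured in 2 libraries, 1 from femur marrow and 1 from ectopic bone. The authors deposited raw UMI counts per gene and barcode. The file headers name Cell Ranger 7.0.1, and the build is GRCm39 per the submitters' processing notes. Whether intronic reads were counted is not given in the sources used here, and intronic counting would add reads for long genes such as Rarb. The deposited barcode and gene lists name the rows and columns of these counts.

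Cells with at least 500 UMIs, 300 genes and at most 10% mitochondrial UMIs were kept. Simulated-doublet scores removed 0.8% of cells per 1000 cells (910 femur and 369 ectopic cells). Counts were scaled to 10000, and 2000 variable genes, 30 components and 15 neighbours gave Leiden clusters at resolution 1. Each was named from marker lists by its 10 leading genes (50 where none was a marker), with at least 3 markers raised. This naming rule was set after clusters were seen, and differences from the study may come from rebuilt names.

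UMIs were summed per class and library and given as CPM, with exact Poisson intervals. Ratios have exact conditional binomial (Clopper-Pearson) intervals. Ratios of at least 1.5 in either direction with 50 UMIs were called, and no test was possible with 1 library per group. Levels were not compared between genes, and a gene at 0 was set to a floor of 3 UMIs for a fold. The named genes were the 6 members, up to 3 highest and 3 lowest ratios of each list, fixed pathway genes, and the 3 genes most like each member. Results for some of these genes are not reported here. The members and lists were chosen with earlier results of these data known. The ratio and its interval were checked on simulated counts. Alternatives changed the cell filters, doublets, clustering, CAR definition, depth, scaling (edgeR 4.0.16 TMM factors in R 4.3.3, median of ratios) and thresholds. Python 3.11.15, numpy 2.4.6, scipy 1.17.1 and igraph 0.11.9 were used. RefSeq promoters are of another build than the counts, so their coordinates were used for sequence only.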

Additional observations from a re-analysis of the deposited data

How the results depend on the processing

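The direction of each member's ratio in CAR-like cells was the same under each of the 14 fixed alternatives, with log2 ratios of -8.54 to -6.12 for Aldh1a2, 1.74 to 2.21 for Rbp4, -0.78 to -0.15 for Rara, -2.80 to -1.88 for Rarb, -0.60 to -0.29 for Rarg and 0.78 to 1.15 for Rxra. With cells thinned to 3000 UMIs, ectopic Aldh1a2 had no UMI and its log2 ratio, against the floor, moved from -8.51 to -6.12; with fewer counts, 2 pathway genes in place of 6 were lower and 3 in place of 8 higher. At 2-fold, 5 were higher and 4 lower; at a limit of 20 UMIs per gene, 10 and 9; and with the mean of per-cell CPM, 8 and 8, with Rara (-0.78) and Rarg (-0.60) then past 1.5-fold. Without the 5 ectopic cells of most Rbp4 UMIs, chosen after seeing the data, and with all femur cells kept, the Rbp4 log2 ratio was 1.34. For the counts of pathway genes under these settings, the share over all measured genes is not given here, so nothing is read from those counts. The pathway median stayed between -0.10 and 0.05. In hematopoietic classes 1 ratio past 1.5-fold changed direction: that of Rara in myeloid progenitors, from -0.70 to 0.23 without doublet removal, and the cause was not tested. Ratios near 1 also changed sign: Rara in conventional dendritic cells (0.02, down to -0.28) and monocytes (-0.02, up to 0.04), and Rarg in conventional dendritic cells (-0.06, up to 0.01) and the T or NK class (-0.10, up to 0.02). TMM and median-of-ratios scaling shifted log2 ratios by -0.008 and -0.026. Leiden resolutions 2 and 0.5 gave CAR-like classes of unchanged size (218 and 174 cells) and unchanged member ratios. The alternatives are therefore not all separate checks. No paired analysis was possible because each group has 1 library. Genes under 50 UMIs were not called.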
